A study of Mus musculus with 17 samples.

Results

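Skeletal stromal cells (SSCs) of mice heterozygous for the Cxcr4 1013 allele were compared with SSCs of wild-type (WT) mice over all genes, using 3 +/1013 and 3 WT libraries of the 17 libraries in the series. Members were chosen by genotype and cell type as the sample titles give them. CXCR4 is the receptor of the chemokine CXCL12 and is switched off after stimulation through its C-terminal tail. The 1013 allele is a knock-in that shortens this tail, as in the inherited immunodeficiency WHIM syndrome, and the receptor then signals for longer. The knock-in acts in every cell that expresses Cxcr4, blood cells included, and WT and +/1013 mice were littermate females of 8 to 12 weeks with no other allele or treatment given. SSCs were sorted from digested long bones as CD45-TER119-CD31-Sca-1+CD51+PDGFRα+ cells, and each library came from 3000 cells pooled from 3 mice. The question asked of these libraries was whether the longer receptor signal alters the molecular identity of SSCs. A fit over the 8 SSC libraries also held 2 homozygous 1013/1013 libraries, which added to the estimate of the spread. OPCs, the more mature Sca-1-negative osteoblast progenitors of the same sort, had 3 WT and 3 +/1013 libraries and were used to see where SSCs differed.

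SSCs of adult bone lie near the top of the stromal hierarchy, give rise to bone, cartilage and fat cells, and produce the matrix and the CXCL12 that hold blood stem cells in the marrow. Their Sca-1-positive fraction resembles fibroblasts of connective tissue sheaths. Growth of such cells rests on ribosomes, and mRNAs of ribosomal proteins share a start made of pyrimidines, the 5′ terminal oligopyrimidine tract, through which their translation is set by nutrient and growth signals.

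Of 55335 genes in the files, 17659 passed the filter on low counts, and 13 of them (0.0736%) passed the test for a difference between +/1013 and WT SSCs. The test was edgeR's quasi-likelihood test where a gene passed with p under 0.05 after Benjamini-Hochberg adjustment over all genes and a change of 1.5-fold or more. Of these, 12 rose in +/1013 SSCs, 0.068% of all genes tested, and all 12 encode proteins of the cytosolic ribosome. The 1 gene that fell, 0.00566% of all genes tested, was Ccnl2, which encodes cyclin L2, a partner of kinases that act in mRNA splicing. All 13 had an adjusted p of 0.0475. Without any 1 of the 6 libraries no gene passed, with a lowest adjusted p of 0.0995 to 0.332 over the 6 fits, and 872 to 1148 genes higher and 1033 to 1824 lower at an unadjusted p under 0.05. With DESeq2's size factors in place of TMM scaling, or without the filter on low counts, edgeR called 0 genes, with lowest adjusted p-values of 0.0603 and 0.0784. DESeq2's Wald test with the same thresholds called 478 genes higher and 918 lower in +/1013 SSCs.

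**Figure D1:**
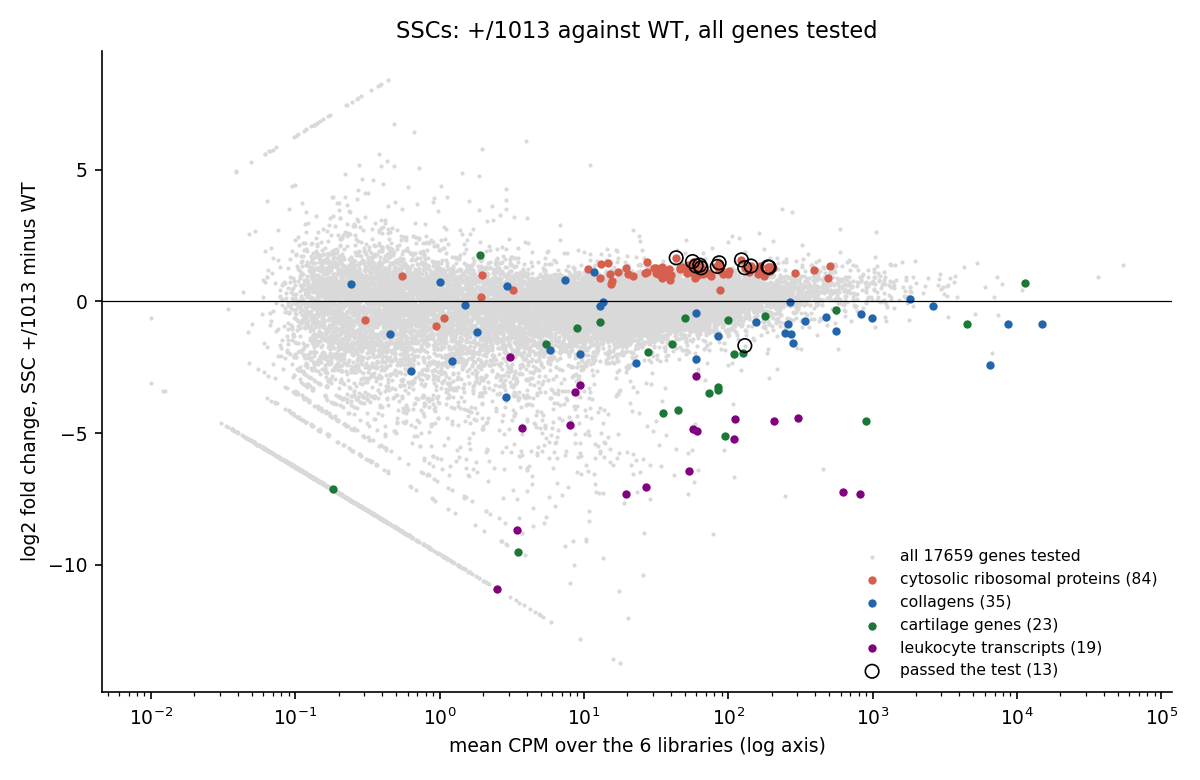
Each point is 1 of 17659 genes, with its mean CPM (counts scaled to the TMM-adjusted library total) over the 6 libraries on a log axis and its log2 fold change between +/1013 and WT SSCs. The 84 cytosolic ribosomal protein genes lie in a narrow band around a median of 1.14, most collagen and cartilage genes lie below 0, and rings mark the 13 genes that passed the test.

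Some measures of the libraries differed between the genotypes without overlap. Total counts on genes were alike, 44499967 to 49600432 in WT and 48626392 to 49628208 in +/1013 SSCs, so the detection limit used here, 3 counts, was worth 0.0546 to 0.0695 CPM. This limit covers counting error only, because PCR copies were not told apart from molecules. Reads outside annotated exons made up 3.68% to 4.15% of WT and 1.53% to 1.80% of +/1013 libraries, and 21449 to 22599 against 17808 to 19227 genes had at least 1 count. Reads without a unique place made up 5.10% to 5.65% of WT and 5.76% to 7.60% of +/1013 libraries. WT replicate 3 stood apart in blood cell transcripts, with a summed 12940 CPM over 20 leukocyte genes, against 1278 and 364 CPM in the other WT libraries and 55.5 to 202 CPM in +/1013 libraries. The labels give no batch, and a batch that follows genotype cannot be told apart from it. Scaled over all 17 libraries, the sum of 7 SSC markers (Ly6a, Pdgfra, Itgav, Pi16, Dpp4, Cd34 and Clec3b) was 1604 to 2272 CPM in WT and 2889 to 4200 CPM in +/1013 SSCs, against 205 to 521 CPM in WT and 226 to 506 CPM in +/1013 OPCs. The sum of 7 osteoblast markers (Bglap, Bglap2, Ibsp, Spp1, Sp7, Alpl and Dmp1) was 2153 to 3913 CPM in WT and 2220 to 6033 CPM in +/1013 SSCs, against 19239 to 30089 CPM in WT and 18772 to 25725 CPM in +/1013 OPCs. Both sums thus separated SSCs from OPCs in every library compared, although osteoblast genes were not absent from SSCs. In bulk RNA, a different mix of cells and a different RNA content per cell cannot be told apart.

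The start sites of the called genes are shown first, since 12 of 13 belong to the mRNA class with a pyrimidine start. RefSeq promoters of GRCm38.p6 matched 9 of the 13 genes, and 63 of the 84 ribosomal protein genes tested. Each line gives 40 bases before and 20 bases after an annotated start, 5′ to 3′ on the gene's strand. The longest run of C or T is in capitals where it has at least 8 bases. For genes with several annotated starts, such as Rpl19 (2) and Rps19 (3), the start with the longest run was taken.

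Rpl14: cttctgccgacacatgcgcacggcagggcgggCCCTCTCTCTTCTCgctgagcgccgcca
Rps25: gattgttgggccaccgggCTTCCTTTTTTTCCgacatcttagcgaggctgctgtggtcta
Rpl19: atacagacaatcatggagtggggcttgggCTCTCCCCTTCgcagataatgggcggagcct
Rps7: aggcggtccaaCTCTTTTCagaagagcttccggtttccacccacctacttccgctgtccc
Ccnl2: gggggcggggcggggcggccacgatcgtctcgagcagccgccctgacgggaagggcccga

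These stretches are chr9:120571477-120571536 (Rpl14), chr9:44407674-44407733 (Rps25), chr11:98026884-98026943 (Rpl19), chr12:28635934-28635993 on the minus strand (Rps7) and chr4:155812449-155812508 (Ccnl2). Rpl14 and Rps25 held runs of 14 bases, Rpl19 of 11 and Rps7 of 8, whereas the longest run at Ccnl2 was 4. Relative to the annotated start, the runs began at −8 (Rpl14), −22 (Rps25), −11 (Rpl19) and −29 (Rps7). Of these, only the run of Rpl14 crossed the start, and the others lay wholly before it. Over annotated starts, 40 of 75 (53.3%) of the ribosomal protein genes held a run of at least 8 in this window on the gene's strand. The share was 24.2% of all 32851 promoters. For the genes called higher it was 5 of 11 starts (45.5%). The runs are a description of these letters and not of use of the start in SSCs. The other ribosomal protein genes of the 13 were either not in the table (Rpl32, Rps20, Rplp1 and Rpl8), or had a run of 8 that began at −40 (Rps19) or shorter runs. These shorter runs had 5 bases at Rpl37a, 4 at Rpl9 and 6 at Rps23. The ribosomal protein lines printed above are thus from the longer runs, and the run at Rpl9 was as short as that at Ccnl2.

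Rpl37a, a protein of the large ribosomal subunit (ENSMUSG00000046330.10, chromosome 1, 72711290 to 72713813, GENCODE M21), rose most among the 12. Its level was 23.7, 22.2 and 16.9 CPM in WT and 67.1, 59.8 and 71.5 CPM in +/1013 SSCs. Every +/1013 library lay above every WT library, with a log2 fold change of 1.66 (SE, the standard error of the fit, 0.19, adjusted p = 0.0475 by edgeR and Benjamini-Hochberg). Rpl32, also of the large subunit (ENSMUSG00000057841.5, chromosome 6, 115805505 to 115808747), had 60.8, 58.2 and 66.9 CPM in WT and 204, 166 and 185 CPM in +/1013 SSCs, a log2 fold change of 1.58 (SE 0.16). Rps20, of the small subunit (ENSMUSG00000028234.6, chromosome 4, 3831334 to 3835665), had 33.1, 34.3 and 33.9 CPM in WT and 87.6, 88.5 and 81.6 CPM in +/1013 SSCs, a log2 fold change of 1.35 (SE 0.15). The spread among replicates of Rps20, 0.576 CPM in WT and 3.72 CPM in +/1013 SSCs (SD, n = 3), was far below the gap between the genotypes. The other 9, of both subunits and the stalk, rose by 1.28 to 1.51 on the log2 scale, namely Rps25 (1.51), Rps23 (1.47), Rps7 (1.38), Rpl9 (1.35), Rpl19 (1.33), Rpl14 (1.31), Rpl8 (1.30), Rps19 (1.28) and Rplp1 (1.28). In folds, the 12 genes were 2.42 to 3.15 times as high in +/1013 as in WT SSCs.

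Ccnl2 (ENSMUSG00000029068.16, chromosome 4, 155812489 to 155824543) had 185, 217 and 193 CPM in WT and 68.9, 60.5 and 56.9 CPM in +/1013 SSCs. The 2 groups did not overlap, and the log2 fold change was −1.67 (SE 0.18, adjusted p = 0.0475 by edgeR and Benjamini-Hochberg). The 2 1013/1013 libraries share the WT libraries as controls, and there the log2 fold change was −1.94 for Ccnl2 and 1.29 to 1.65 for the 12 ribosomal protein genes.

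**Figure D2:**
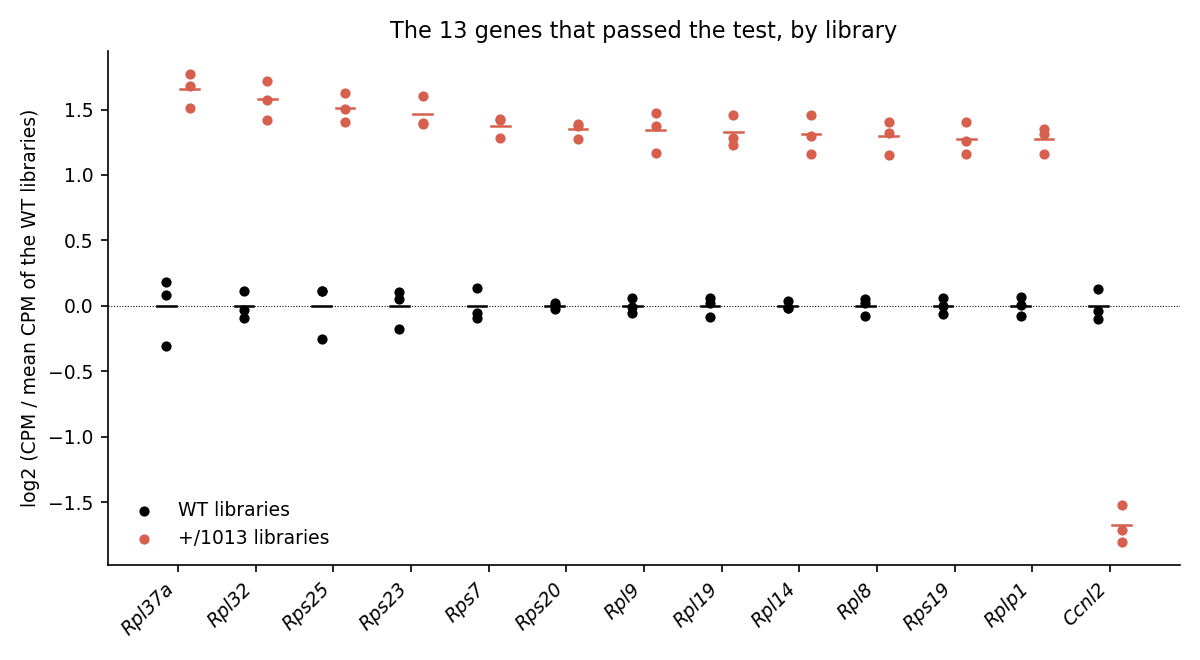
Points are single libraries, placed by the log2 ratio of their CPM to the mean of the 3 WT libraries, and short lines are group means, for the 13 genes that passed the test. All +/1013 points of the 12 ribosomal protein genes lie above all WT points, and those of Ccnl2 below, with log2 fold changes from 1.28 to 1.66 and of −1.67.

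Cytosolic ribosomal protein genes were higher in +/1013 SSCs nearly throughout. Of 85 in the list 84 were tested, and 81 were higher, where 44.8% of all genes tested were higher, with a median log2 fold change of 1.14 where the median of all genes tested was −0.11. At an unadjusted p under 0.05, 76 were higher and 0 lower, where 7.65% of all genes tested were higher. In 78 the 3 and 3 libraries did not overlap, where 14.5% of all genes were higher without overlap. DESeq2 called 73 of them higher, against 2.85% of the genes that it and edgeR both tested. Summed over the 85 genes of the list, their level was 4204, 4283 and 4601 CPM in WT and 10564, 9953 and 8939 CPM in +/1013 SSCs. The 3 lower members were Rps10 (−0.93), Rpl24 (−0.72) and Rpl36al (−0.64), none of which passed the test. Genes of this family share reads with many pseudogenes, and reads placed in several locations were not counted, so single members are uncertain. Processed pseudogenes as a class had a median of 0.56 over 754 tested, 595 of them higher. Without WT replicate 3, 79 of 83 ribosomal protein genes tested were higher, with a median of 1.17.

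Other short housekeeping genes had the same direction. The subunits of the respiratory chain and ATP synthase that are encoded in the nucleus had a median log2 fold change of 0.76, with 77 of 80 higher, 61 of them at an unadjusted p under 0.05. Cox4i1, a subunit of cytochrome c oxidase, had 144, 140 and 111 CPM in WT and 330, 303 and 291 CPM in +/1013 SSCs (log2 fold change 1.23, adjusted p = 0.055 by edgeR and Benjamini-Hochberg). Proteasome subunits had a median of 0.69, with 35 of 37 higher, 30 of them at an unadjusted p under 0.05. Psmb1, of the proteasome core, had 94.4, 88.6 and 80.2 CPM in WT and 179, 174 and 163 CPM in +/1013 SSCs, again with no overlap. Mitochondrial ribosomal proteins had a median of 0.57, with 73 of 75 higher, 28 of them at an unadjusted p under 0.05. None of these 3 lists held a gene that passed the test, and DESeq2 called 30, 12 and 12 members higher and 0 lower. Of all genes tested 7.65% were higher at an unadjusted p under 0.05, and DESeq2 called 2.85% higher of those that both tools tested.

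The proteins encoded in the mitochondrial genome had a median log2 fold change of 1.84, with 12 of 12 tested higher and 0 past the test, but their libraries were more scattered. mt-Co1, the core of cytochrome c oxidase, had 569, 339 and 318 CPM in WT and 951, 1683 and 527 CPM in +/1013 SSCs, so the lowest +/1013 library lay below the highest WT library. Summed over 13 genes, they had 2832, 1728 and 924 CPM in WT and 8151, 6349 and 2231 CPM in +/1013 SSCs. The groups thus overlapped in this sum, and 2 of the 12 genes were higher without overlap, a share near the 14.5% of all genes tested. At an unadjusted p under 0.05 by edgeR, 7 of the 12 were higher, where 7.65% of all genes tested were higher.

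Transcript length went along with the direction of change in SSCs. Among protein-coding genes averaging 1 CPM or more, the median log2 fold change was 0.67 for 430 genes whose longest annotated transcript has up to 1000 bases. It was 0.36 up to 2000 bases, 0.04 up to 4000, −0.38 up to 8000 and −0.60 for 739 genes above. Without the cytosolic ribosomal proteins the first of these values was 0.63. In OPCs the same comparison of genotypes gave −0.18, −0.04, 0.00, 0.04 and 0.09 in the same order of classes. Relative to the median of its own length class, 80 of 84 cytosolic ribosomal protein genes were higher, by a median of 0.70. So were 67 of 80 nuclear respiratory chain genes (0.28), 33 of 37 proteasome genes (0.36) and 59 of 75 mitochondrial ribosomal protein genes (0.32). The longest annotated transcript sets the class, with 3706 bases for Rps20 and 2690 for Rpl9, both in the class with a median of 0.04. Which transcripts SSCs use was not measured. Where shorter ones are in use, the excess over the class is too large. Some gene classes that are mostly unspliced or nuclear were lower in +/1013 SSCs, with medians of −1.74 for 29 small nucleolar RNA genes and −1.52 for 500 unspliced transcript models of the annotation class TEC. Medians were −0.53 for 595 antisense and −0.20 for 568 long intergenic noncoding RNA genes. No limit on mean CPM was set here, and more genes had a count in WT than in +/1013 SSCs. Low members of these classes can thus pass the filter through WT libraries, so their medians are a description only. The counting is not stated to use strand, so reads of such a gene and of an overlapping gene cannot be told apart. The part of length and of reads outside exons in the results of single genes was not tested.

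**Figure D3:**
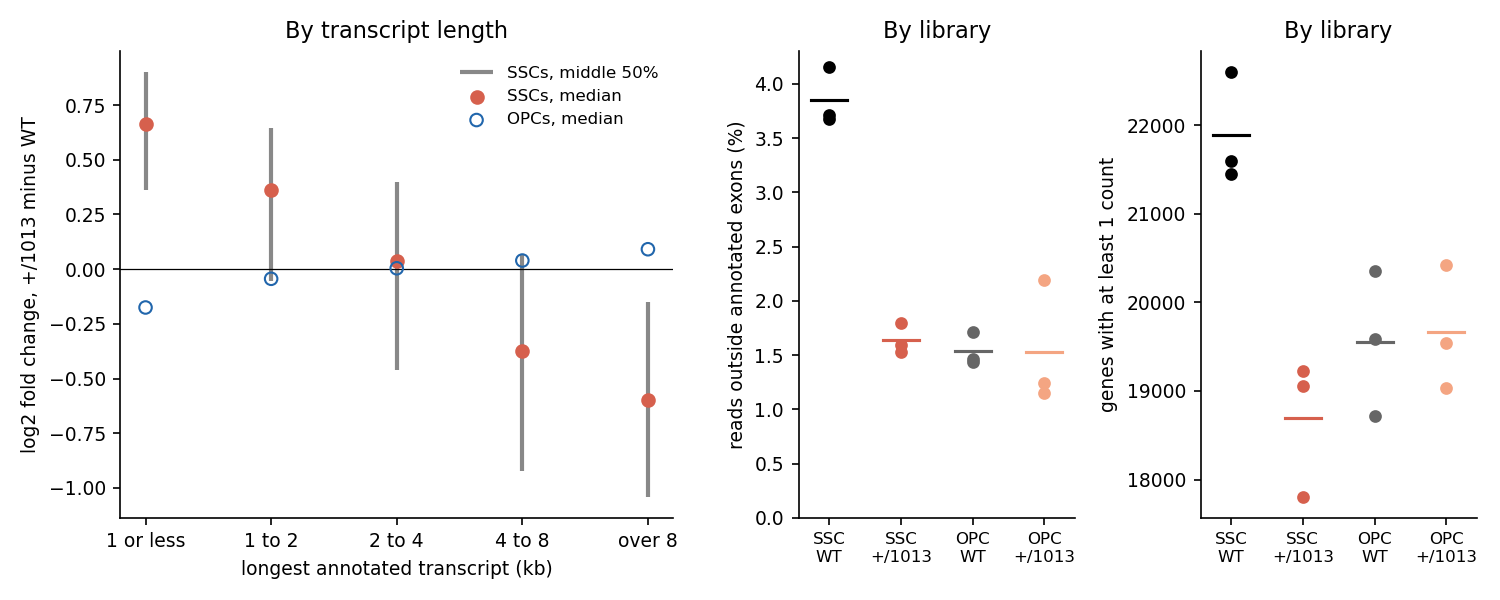
Left, median log2 fold change between +/1013 and WT by transcript length class in kilobases, with bars for the middle 50% of genes in SSCs and open circles for OPC medians; middle and right, percentage of reads outside exons and number of genes with a count in each library, with lines for group means. In SSCs the medians run from 0.67 to −0.60, and WT SSC libraries lie above all others in both library measures.

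Lower genes that came next by p after Ccnl2 missed the threshold, with adjusted p-values of 0.0505 to 0.074 by edgeR and Benjamini-Hochberg. Sdc3, the cell surface proteoglycan syndecan 3 (chromosome 4, 130792537 to 130826319), had 179, 195 and 158 CPM in WT and 28, 30.5 and 47 CPM in +/1013 SSCs (log2 fold change −2.33, SE 0.29). Adamts10, a matrix protease tied to fibrillin (chromosome 17, 33524204 to 33553782), had 104, 166 and 94.3 CPM in WT and 12.1, 11.5 and 22.8 CPM in +/1013 SSCs (log2 fold change −2.97, SE 0.38). In both genes the highest +/1013 library was well under the lowest WT library. Son, an RNA-binding protein that acts in splicing, had a log2 fold change of −1.15. Others were the lipid transporters Abca7 (−2.48) and Abca2 (−2.21), Pde4dip (−1.18), Leng8 (−2.68), Sipa1l2 (−2.32) and Ppox (−1.24), an enzyme of heme synthesis. Of the 19 tested cyclin L, CLK kinase and SR protein genes, 15 were lower, with a median of −0.28, 1 passed the test (Ccnl2) and 3 were lower at an unadjusted p under 0.05, where 9.68% of all genes tested were lower at this p. Clk2, a kinase of splicing factors, had 45.9, 51.4 and 47.1 CPM in WT and 25.9, 15.5 and 27.2 CPM in +/1013 SSCs.

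Most collagens were lower in +/1013 SSCs, and none passed the test. Summed over 36 genes, collagens had 51281, 53969 and 51175 CPM in WT and 19981, 21522 and 39020 CPM in +/1013 SSCs. Of 35 tested, 29 were lower, where 55.2% of all genes tested were lower, with a median log2 fold change of −0.85, 13 of them at an unadjusted p under 0.05, and 0 were higher at this p. In 16 the groups did not overlap, all lower, where 16.8% of all genes were lower without overlap, and DESeq2 called 10 lower, against 5.47% of the genes that both tools tested. Without WT replicate 3 the median was −0.90, with 13 lower at an unadjusted p under 0.05. The median of the length classes of these genes was −0.38, and 12 of 35 were above the median of their own class.

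Col1a1, the main chain of type I collagen of bone (ENSMUSG00000001506.10, chromosome 11, 94936224 to 94953042), had 10671, 12802 and 9417 CPM in WT and 1217, 1416 and 3557 CPM in +/1013 SSCs. In log2 units it differed by −2.41 (SE 0.46, adjusted p = 0.11 by edgeR and Benjamini-Hochberg), with no overlap. Its partner chain Col1a2 had 11105, 11813 and 10328 CPM in WT and 4573, 5298 and 8554 CPM in +/1013 SSCs (log2 fold change −0.85). Both chains were highest in +/1013 replicate 3 among the +/1013 libraries, still under every WT library. Col6a3, of microfibrillar type VI collagen, had a log2 fold change of −1.14, while Col6a1 and Col6a2 of the same trimer had −0.17 and 0.08. Col16a1 (−1.58) and Col8a2 (−1.24) were also lower without overlap. Among the 33 proteins that fold, secrete and crosslink collagen, 19 were lower and 14 higher, with a median of −0.09. Ppib, a prolyl isomerase of the collagen folding complex, had 83.7, 79 and 66.7 CPM in WT and 168, 177 and 148 CPM in +/1013 SSCs (log2 fold change 1.10, adjusted p = 0.0614 by edgeR and Benjamini-Hochberg). Loxl2, which crosslinks collagen, had a log2 fold change of −1.01.

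Most cartilage genes were lower in +/1013 SSCs, 21 of 23 with a median log2 fold change of −1.91, 9 of them at an unadjusted p under 0.05 and 0 past the test. Of all genes tested 55.2% were lower, and 9.68% were lower at this p. Their summed level was not lower throughout. Over the 23 genes it was 24791, 18297 and 12791 CPM in WT and 13267, 21975 and 19805 CPM in +/1013 SSCs, with overlap. Acan, the large proteoglycan of cartilage, had 293, 74.8 and 95.2 CPM in WT and 8.85, 21 and 14.9 CPM in +/1013 SSCs. Col11a2, a cartilage collagen, had 391, 90.6 and 68 CPM in WT and 1.95, 9.7 and 4.48 CPM in +/1013 SSCs. In both, WT replicate 1 held the highest value and the groups did not overlap, and their adjusted p-values were 0.164 and 0.179 by edgeR and Benjamini-Hochberg. Col10a1 of hypertrophic cartilage had 9.18, 0.509 and 11.3 CPM in WT and did not exceed the detection limit in any of the 3 +/1013 libraries. It thus passed the filter on low counts through other libraries. Prg4, the lubricin of joint surface and synovium, had 6504, 6213 and 4594 CPM in WT and 2558, 3277 and 3788 CPM in +/1013 SSCs. Without WT replicate 1, the median of the 23 cartilage genes was −0.75. Comp (0.68) and Ihh (1.75) were the 2 higher members.

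Genes of the osteoblast lineage pointed both ways. Of 20 osteoblast transcription factors 15 were lower, where 55.2% of all genes tested were lower, with a median log2 fold change of −0.52 and 0 past the test. At an unadjusted p under 0.05, 2 were lower and 1 higher, shares near those of all genes tested, 9.68% and 7.65%. Runx2, the master factor of osteoblasts, had 14.2, 36.5 and 28.4 CPM in WT and 6.05, 14.1 and 9.92 CPM in +/1013 SSCs, so the highest +/1013 library lay just under the lowest WT library. Sp7, the factor osterix downstream of it, had 13.7, 41.4 and 17.5 CPM in WT and 9.72, 5 and 8.94 CPM in +/1013 SSCs, with adjusted p-values of 0.199 for Runx2 and 0.594 for Sp7 by edgeR and Benjamini-Hochberg. Atf4, a stress and amino acid response factor needed by osteoblasts, was higher, with 295, 238 and 278 CPM in WT and 552, 844 and 391 CPM in +/1013 SSCs.

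Of 19 bone matrix and mineralization genes 13 were lower, with a median of −0.38, and 0 had an unadjusted p under 0.05. Bglap, which encodes osteocalcin, had 54.4, 44.1 and 14.9 CPM in WT and 15, 19.8 and 13.5 CPM in +/1013 SSCs, with overlap. Spp1, which encodes osteopontin, had 3408, 1794 and 1939 CPM in WT and 5765, 5729 and 1870 CPM in +/1013 SSCs, also with overlap. Alpl, the phosphatase of mineralization, and Ibsp, bone sialoprotein, had log2 fold changes of −0.38 and −0.07 and overlapped too, and both turned positive without WT replicate 2 (0.37 and 0.17).

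**Figure D4:**
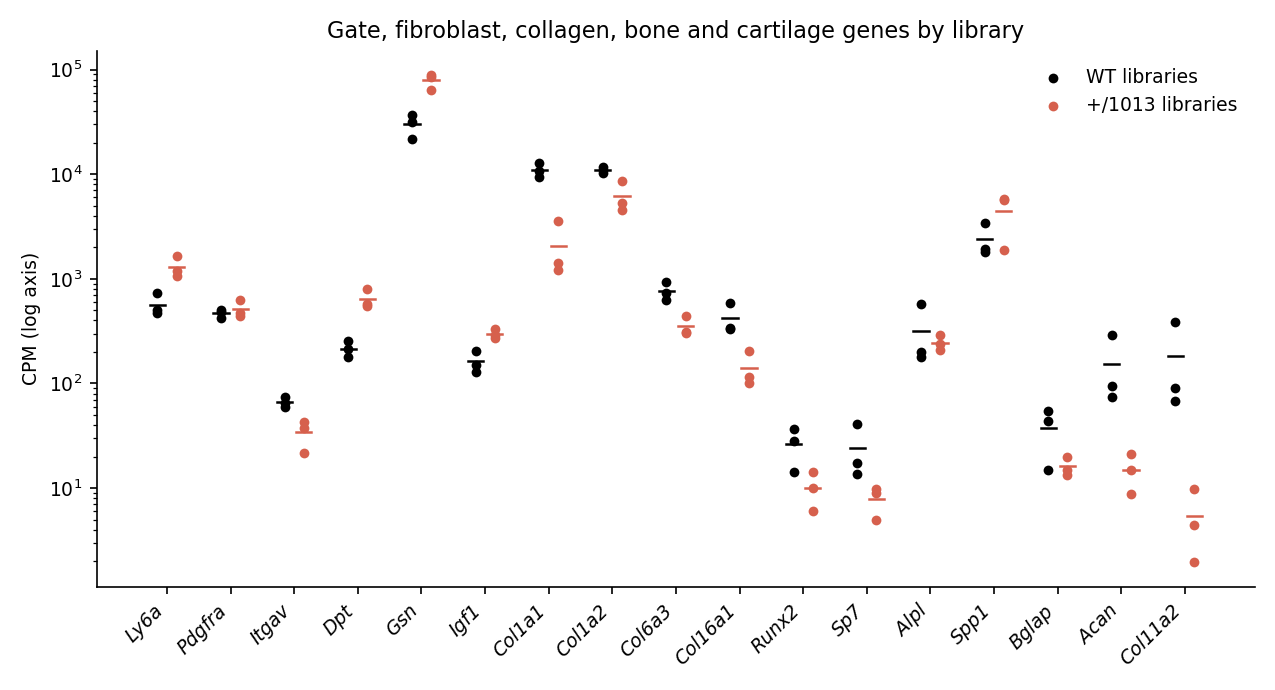
Points are single libraries in CPM on a log axis and short lines are group means for 17 genes of the gate, of Sca-1-positive fibroblasts, of collagens, of bone and of cartilage. Col1a1 lies between 9417 and 12802 CPM in WT and between 1217 and 3557 CPM in +/1013 libraries, whereas the Sca-1 gene Ly6a and the fibroblast genes Dpt and Gsn lie higher in all +/1013 libraries.

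Genes of Sca-1-positive fibroblasts were higher in +/1013 SSCs, 27 of 30 with a median log2 fold change of 0.76, 11 of them at an unadjusted p under 0.05, and 0 past the test. Of all genes tested 44.8% were higher, and 7.65% were higher at this p. Gsn, the actin-severing protein gelsolin, was among the genes with the highest CPM, not scaled by length, with 36746, 31497 and 21682 CPM in WT and 84856, 64075 and 88716 CPM in +/1013 SSCs. Dpt, the matrix protein dermatopontin, had 253, 212 and 181 CPM in WT and 798, 550 and 570 CPM in +/1013 SSCs. Ly6c1 had 451, 261 and 329 CPM in WT and 1182, 912 and 853 CPM in +/1013 SSCs. No gene of these 3 overlapped between the groups, with log2 fold changes of 1.40 for Gsn and 1.57 for Dpt and adjusted p-values of 0.146 (Gsn), 0.132 (Dpt) and 0.11 (Ly6c1) by edgeR and Benjamini-Hochberg. The progenitor markers Pi16 (1.39), Clec3b (1.18) and Cd34 (1.07) were also higher at an unadjusted p under 0.05, and Dpp4 had 0.53. Relative to their transcript length class 27 of 30 were higher. Without WT replicate 3 the median was 0.74, with 7 at an unadjusted p under 0.05.

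Of the genes behind the gate itself, Ly6a, which encodes Sca-1, had 725, 469 and 506 CPM in WT and 1653, 1075 and 1192 CPM in +/1013 SSCs (log2 fold change 1.21, adjusted p = 0.158 by edgeR and Benjamini-Hochberg). Pdgfra had 480, 503 and 424 CPM in WT and 468, 440 and 628 CPM in +/1013 SSCs; its log2 fold change of 0.13 turned to −0.076 without +/1013 replicate 3. Itgav, which encodes CD51, had 65.3, 60.1 and 74.6 CPM in WT and 21.5, 43.2 and 37.6 CPM in +/1013 SSCs. The groups did not overlap for Ly6a and Itgav. Of the markers gated out or of blood progenitors, WT replicate 3 held the most Ptprc and Kit, above its Itgav level, with Ptprc (CD45) at 9.33, 1.53 and 150 CPM in WT and 0.124, 1.11 and 0 CPM in +/1013 SSCs, Kit at 1.97, 4.79 and 106 CPM in WT and at most 0.505 CPM in +/1013 SSCs, and Pecam1 (CD31) highest in +/1013 replicate 1 at 42.4 CPM.

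Complement genes had a median of 0.77, with 13 of 15 higher and 0 past the test. At an unadjusted p under 0.05, 5 were higher, where 7.65% of all genes tested were higher, and DESeq2 called 5 higher, against 2.85% of the genes that both tools tested. Serping1, the C1 inhibitor, had 2659, 2775 and 1920 CPM in WT and 6553, 5576 and 6162 CPM in +/1013 SSCs. Cfb, complement factor B, had 5.17, 6.2 and 5.48 CPM in WT and 14.7, 16.7 and 18.1 CPM in +/1013 SSCs, and the C1 proteases C1ra and C1s1 had log2 fold changes of 1.22 and 1.10. The 1 member lower at an unadjusted p under 0.05 was Cfp (−3.84), the properdin made by myeloid cells. Small leucine-rich proteoglycans, which bind collagen fibrils, had a median of 0.42 with 12 of 16 higher and 0 past the test. Dcn, the proteoglycan decorin, had 31770, 23474 and 20388 CPM in WT and 46078, 57863 and 40008 CPM in +/1013 SSCs, and Ogn, osteoglycin, had a log2 fold change of 1.25.

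Cxcr4 itself was low in most SSC libraries. Its level was 1.57, 0.873 and 59.1 CPM in WT and 0.249, 0.37 and 0.21 CPM in +/1013 SSCs. The high value was that of WT replicate 3, the library with the highest sum of leukocyte transcripts, and without it the log2 fold change went from −6.20 to −2.14 (adjusted p = 0.554 by edgeR and Benjamini-Hochberg). Gene counts do not separate the 1013 from the WT allele, so this gene did not check the genotype labels. Its ligand Cxcl12 had 660, 841 and 438 CPM in WT and 1986, 999 and 1243 CPM in +/1013 SSCs, and Ackr3, the other receptor of that ligand, had 541, 396 and 383 CPM in WT and 661, 937 and 658 CPM in +/1013 SSCs. The groups did not overlap in either gene, and neither passed the test (adjusted p = 0.184 and 0.235 by edgeR and Benjamini-Hochberg). Of 25 receptors, ligands, G proteins, kinases and RGS proteins of this axis 18 were lower, with a median of −0.55, where 55.2% of all genes tested were lower. At an unadjusted p under 0.05, 4 were higher and 2 lower, where 7.65% and 9.68% of all genes tested were. Some of the lower members, such as Rgs1 (−6.23) and Cd74 (−2.85), are blood cell genes.

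Blood cell transcripts were lower in +/1013 SSCs in all 19 leukocyte genes tested, with a median of −4.86 and 16 at an unadjusted p under 0.05, where 9.68% of all genes tested were lower. Without WT replicate 3 the median was −3.02. S100a9, a neutrophil protein, had 210, 67 and 921 CPM in WT and 35.3, 9.79 and 6.24 CPM in +/1013 SSCs. Elane, neutrophil elastase, had 21.1, 1.86 and 94.2 CPM in WT and 0.145, 0.208 and 0.378 CPM in +/1013 SSCs. Members this low in +/1013 SSCs pass the filter on low counts through other libraries. The count of lower members is therefore a description only. Summed erythroid transcripts were 377 to 1139 CPM in WT and 158 to 343 CPM in +/1013 SSCs, and the sums of endothelial (40.3 to 90.7 against 34.8 to 231 CPM), mural (258 to 806 against 201 to 394 CPM) and skeletal muscle genes (7.39 to 48.5 against 19.2 to 107 CPM) overlapped. No list of these 5 had a gene that passed the test, and the part of these cells in other results was not tested.

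Proliferation genes were highest in the same library, with a summed 745 CPM over 34 mitosis genes in WT replicate 3, against 151 and 164 CPM in the other WT libraries and 116 to 132 CPM in +/1013 libraries. All 32 mitosis genes tested were lower in +/1013 SSCs, with a median of −1.97, and without WT replicate 3 the median was −0.19. Only 4 of them were lower at an unadjusted p under 0.05 by edgeR. Of all genes tested 55.2% were lower, and 9.68% were lower at this p. Members low in +/1013 SSCs can pass the filter on low counts through other libraries, so the count of lower members is a description only. Mki67, the proliferation antigen Ki-67, had 5.55, 2.64 and 40.9 CPM in WT and 0.456, 0.741 and 1.7 CPM in +/1013 SSCs. Its groups did not overlap, and without WT replicate 3 its log2 fold change was −2.08. Genes of DNA replication had a median of −0.06 with 28 of 47 lower, and 0.41 without WT replicate 3. Of the cyclin-dependent kinase inhibitors, Cdkn1c (p57) had 28.7, 41.4 and 24.3 CPM in WT and 88.4, 51.7 and 61 CPM in +/1013 SSCs.

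Niche and signalling genes gave smaller and mixed differences. Fgf7, a growth factor for epithelia, came closest to the threshold, with 24.9, 29.9 and 21.2 CPM in WT and 73.9, 78.1 and 63.7 CPM in +/1013 SSCs (log2 fold change 1.51, SE 0.20, adjusted p = 0.0505 by edgeR and Benjamini-Hochberg). Igf1 had 206, 129 and 152 CPM in WT and 291, 331 and 274 CPM in +/1013 SSCs, and its receptor Igf1r had 25.2, 29.7 and 29.4 CPM in WT and 8.62, 8.38 and 14.3 CPM in +/1013 SSCs. Both pairs of groups were apart, in opposite directions. In the Wnt pathway (median −0.19, 38 tested) Dkk2, an inhibitor of Wnt receptors, had 45.9, 28.5 and 29.1 CPM in WT and 105, 102 and 106 CPM in +/1013 SSCs, while Rspo2 (−1.31), which strengthens Wnt signals, and the receptor Lrp5 (−1.77) were lower. In the BMP and TGF-beta pathway (median −0.18, 50 tested) Fst, the activin antagonist follistatin, and the BMP target Id3 had log2 fold changes of 1.53 and 1.14, and Tgfb1 and the inhibitor Smad7 had −1.23 and −2.16. None of these genes passed the test. Among the 38 Wnt genes, 2 were higher and 3 lower at an unadjusted p under 0.05 by edgeR. Among the 50 BMP and TGF-beta genes, 2 were higher and 5 lower at this p. These shares were near or below those of all genes tested, 7.65% higher and 9.68% lower.

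Factors that act on osteoclasts varied widely among the +/1013 libraries. Il6 had 52.7, 51 and 39.3 CPM in WT and 241, 1114 and 167 CPM in +/1013 SSCs, without overlap, and Ccl2, a monocyte chemokine, had 36.6, 15.4 and 45.8 CPM in WT and 169, 350 and 24.6 CPM in +/1013 SSCs, with overlap. Both were highest in +/1013 replicate 2. The osteoclast factor RANKL (Tnfsf11) had 4.42, 5.35 and 7.34 CPM in WT and 2.78, 2.43 and 0.925 CPM in +/1013 SSCs, its decoy receptor Tnfrsf11b had 399, 167 and 198 CPM in WT and 118, 322 and 132 CPM in +/1013 SSCs, and Csf1 had a log2 fold change of −0.08. Il11, Lif and Il12a reached at most 24.3 CPM in any library (Lif in WT replicate 3), with log2 fold changes of −0.58, −0.29 and −0.24. Over the list of 16 the median was −0.22. Stress genes that respond to cell isolation (27 immediate-early and heat shock genes) had a median of 0.05. Atf3 had 762, 479 and 1136 CPM in WT and 1757, 3244 and 1169 CPM in +/1013 SSCs, again highest in +/1013 replicate 2.

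Fat and metabolic genes were mixed as well. The 26 adipocyte genes had a median of −0.13, with 12 higher and 14 lower, where 55.2% of all genes tested were lower. Apoe, a lipid carrier, had 408, 392 and 250 CPM in WT and 1153, 847 and 1080 CPM in +/1013 SSCs, and Cebpd, an early adipogenic factor, had 224, 156 and 113 CPM in WT and 575, 628 and 284 CPM in +/1013 SSCs. Both were without overlap and missed the threshold (adjusted p = 0.113 and 0.145 by edgeR and Benjamini-Hochberg). Dgat1, of the same list, was lower without overlap, with 48.6, 62.7 and 206 CPM in WT and 29.1, 34.6 and 29.9 CPM in +/1013 SSCs. Its log2 fold change was −1.76 (adjusted p = 0.177 in the same test). Medians were 0.21 for glycolysis, −0.10 for cholesterol and fatty acid synthesis, 0.15 for interferon-stimulated and 0.07 for tendon and periosteal genes. They were −0.02 for matrix proteases and inhibitors, −0.04 for IGF pathway genes, 0.10 for niche factors and 0.12 for D-type cyclins with their partners. The median of all genes was −0.11. Such medians can hide members that moved in opposite directions. At an unadjusted p under 0.05 by edgeR, 5 of 19 niche factors were higher and 3 lower. Of 19 IGF pathway genes 4 were higher and 2 lower, where 7.65% and 9.68% of all genes tested were. Among 20 imprinted genes, with a median of 0.04, Meg3, a noncoding growth suppressor, had 29.1, 17.7 and 12.3 CPM in WT and 0.373, 1.69 and 0.799 CPM in +/1013 SSCs. Its log2 fold change of −4.36 missed the threshold (adjusted p = 0.108 by edgeR and Benjamini-Hochberg).

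**Figure D5:**
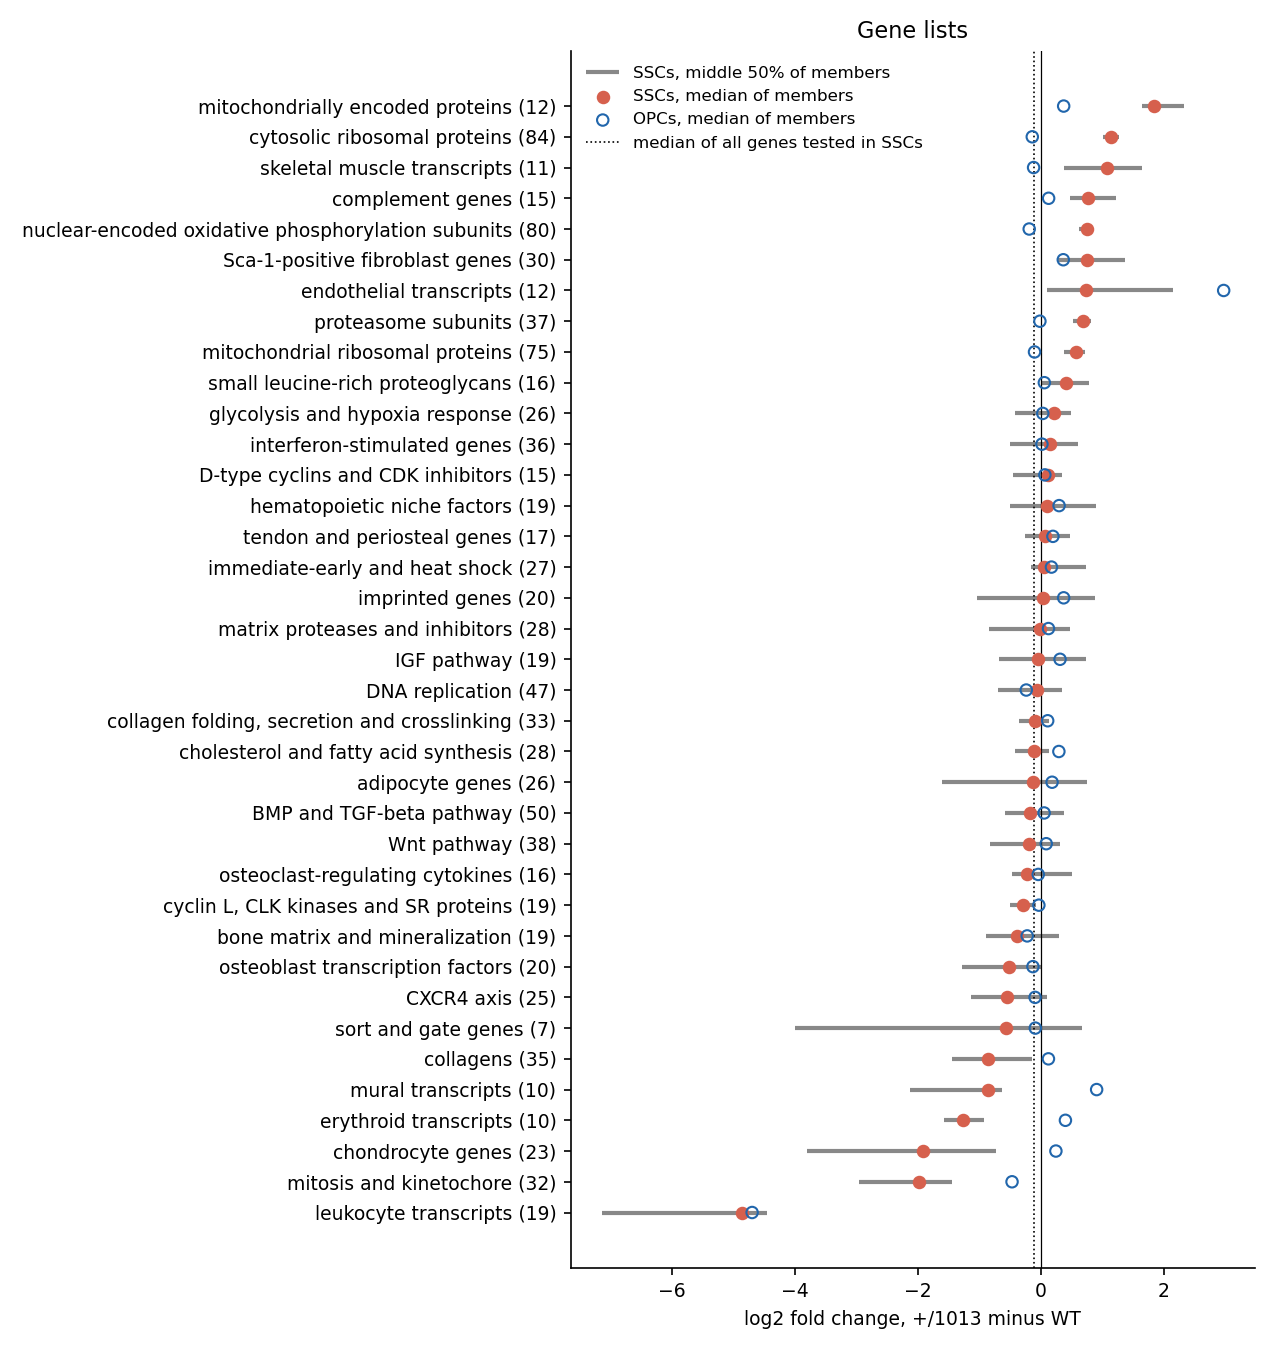
Each row is a gene list with the number of members tested, the orange point is the median log2 fold change between +/1013 and WT SSCs, the grey bar spans the middle 50% of members, and the open circle is the median of the members in the same comparison in OPCs. Medians for cytosolic ribosomal proteins are 1.14 in SSCs and −0.14 in OPCs, those for collagens −0.85 and 0.13, and those for leukocyte transcripts −4.86 and −4.70.

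The effect of the +/1013 genotype differed between SSCs and OPCs in 17 of 20238 genes, by a test of the difference itself over 17 libraries in edgeR with Benjamini-Hochberg adjustment. In 14 (0.0692%) the effect was higher in SSCs and in 3 (0.0148%) lower. Of the 14, 13 encode cytosolic ribosomal proteins and the other is Eif3i, a subunit of a translation initiation factor. For Rpl37a, the log2 fold change was 1.68 in SSCs and −0.34 in OPCs, a difference of 2.02 (SE 0.33, adjusted p = 0.0458). For Rpl32 it was 1.60 and −0.22, a difference of 1.82. Scaled over all 17 libraries, Rpl32 had a mean of 50.5 CPM in WT and 153 CPM in +/1013 SSCs, but 45.1 CPM in WT and 38.6 CPM in +/1013 OPCs. Over the 84 ribosomal protein genes the OPC median was −0.14, and for the nuclear respiratory chain it was −0.19.

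The 3 genes with the lower effect in SSCs were Ccnl2 (difference −1.72), Adamts10 (−3.08) and Serpina3c (−7.05), a serine protease inhibitor. Ccnl2 had a mean of 162 CPM in WT and 51.4 CPM in +/1013 SSCs, and 32.3 and 34.0 CPM in WT and +/1013 OPCs. The level in +/1013 SSCs thus stayed above that in OPCs. Adamts10 had 99.4 and 12.8 CPM in SSCs, and 40.6 and 44.4 CPM in OPCs. Serpina3c had a mean of 8.46 CPM in WT and 33.0 CPM in +/1013 SSCs. In OPCs it rested on 0 counts in all 3 WT libraries against 0.768, 0.952 and 1.47 CPM in +/1013, so the size of its fitted difference is no measure of fold. Collagens, with a median of −0.85 in SSCs, had 0.13 in OPCs, and none of them passed the test of the difference. Without any 1 library of the 12 compared, 0 genes passed this test, except 13 without OPC WT replicate 1 and 5 without SSC +/1013 replicate 3, and DESeq2 called 229 genes higher and 283 lower.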

How the data were processed

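Libraries were made from sorted SSCs and OPCs with a SMART-Seq v4 kit from 400 to 1000 pg of RNA over 12 PCR cycles, and tagmented from 600 pg of cDNA. The authors checked reads with FastQC, removed those under 50 bases, aligned with STAR to mm10 and deposited HTSeq counts per gene, without normalization or pooling. Tool versions, annotation release and strand setting are not given in the sources used here. Of 55335 gene identifiers, 55154 matched GENCODE M21. The counters of unassigned reads were used in no library size or test.

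Computations used R 4.3.3 and edgeR 4.0.16 (filterByExpr, TMM, glmQLFit with legacy = TRUE, no covariates). The 8 SSC libraries entered 1 fit, and all 17 a second fit for the difference between cell types. CPM used TMM-adjusted library sizes. With 3 against 3 libraries an exact permutation p cannot go below 0.1. Alternatives were DESeq2 1.42.0, other scalings, filters and sample sets, thinning, a replicate block and leaving out libraries. Scripts were tested on simulated data. Replicates of a group differed beyond the sampling noise of reads (chi-square per degree of freedom of 141 to 333), so none was the same library sequenced again. This check cannot exclude separate libraries made from the same pool.

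Genes were named by rule: gate and receptor genes, called genes and the next by p at a mean of at least 10 CPM without overlap, up to 4 per list by p at a mean of at least 1 CPM, and genes the study shows for SSCs or OPCs. Some genes the rule names are not reported here. The 37 lists were described by counts and medians without a test. Members, lists and rules were chosen with earlier results of these data known, and list members named beyond the rule, the comparison by transcript length and the search for pyrimidine runs came after values were seen.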

Additional observations from a re-analysis of the deposited data

Results flagged for a closer look

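The effect of the +/1013 genotype differed between SSCs and OPCs in 17 genes by the test of the difference itself (edgeR's quasi-likelihood test over 17 libraries, Benjamini-Hochberg adjusted p of 0.0449 to 0.0463). In cytosolic ribosomal protein genes the log2 fold change was higher in SSCs by 2.02 for Rpl37a, 1.82 for Rpl32, 1.59 for Rps20, 1.56 for Rps7, 1.51 for Rplp0, 1.49 for Rps3a1, 1.47 for Rpl8, 1.47 for Rpl14, 1.46 for Rps3, 1.41 for Rpl7, 1.38 for Rps9, 1.35 for Rpl7a and 1.27 for Rpl13. Eif3i differed by 1.14, with 38.0 ± 2.98 CPM in WT and 86.7 ± 8.37 CPM in +/1013 SSCs (SD, n = 3) but 98.1 ± 4.31 and 101 ± 3.02 CPM in OPCs. The +/1013 SSC level of Eif3i thus lay between the WT SSC level and the OPC level. The effect was lower in SSCs by −1.72 for Ccnl2, −3.08 for Adamts10 and −7.05 for Serpina3c, the last of which was at 0 in all 3 WT OPC libraries. Reads outside exons separated the genotypes in SSCs and not in OPCs, and their part in these differences was not tested.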

How the results depend on the processing

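The 13 genes kept their direction under every setting tried, with the 12 ribosomal protein genes between 1.21 and 1.75 on the log2 scale, but whether they passed the threshold depended on the setting. The count of 13 became 1396 with DESeq2 (478 higher, 918 lower), 145 with all 17 libraries in the fit, 72 with at least 10 counts in every library, 33 with upper-quartile scaling, 17 with the bias-adjusted test (14 higher, 3 lower, 12 of the 13 among them) and 1 with only the 6 libraries, none of the 13. It became 0 with DESeq2's size factors, without a filter and without any 1 library, and stayed at 13 with libraries thinned to the smallest or no fold threshold. The count of 17 for the difference between SSCs and OPCs became 512 with DESeq2 and 0 with the bias-adjusted test, DESeq2's size factors, upper-quartile scaling or no filter, with 850 to 1105 genes higher and 1099 to 1475 lower at an unadjusted p under 0.05, and 0 to 13 without 1 library. The cause of these shifts was not tested.

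Same-numbered SSC libraries of the genotypes compared did not deviate together (correlations of −0.03, −0.08 and −0.08). These values gave no sign of pairing by number between the genotypes in SSCs, but they cannot exclude it. The labels do not say whether replicate numbers mark a shared sort. Pairing between SSC and OPC libraries was not tested, and the main test of their difference took all libraries as independent. With a replicate block both counts became 0, with 1106 and 808 genes higher and 1165 and 978 lower at an unadjusted p under 0.05. Under the block the median log2 fold change was −0.19 for osteoblast transcription factors, 0.37 for niche factors and −0.11 for D-type cyclins and their partners, and Lif turned to 0.27. Block results changed no other direction of a named gene.

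With at least 10 counts in every library, medians moved to 0.085 for gate genes, −0.14 for osteoblast transcription factors, 0.069 for adipocyte genes and 0.34 for niche factors. For D-type cyclins and their partners the median was 0.20 with upper-quartile scaling and −0.0027 with only the 6 libraries. The other 361 of 370 list medians under settings that kept all compared libraries moved by less than the spread between replicates.

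Without 1 library in turn, medians ranged from −0.23 to 0.043 for matrix proteases, −2.71 to −0.75 for cartilage genes, −0.44 to 0.039 for adipocyte genes, 0.064 to 0.35 for niche factors, −0.28 to 0.039 for osteoclast factors, −0.48 to 0.22 for the IGF pathway, −0.27 to 0.41 for DNA replication, −2.46 to −0.19 for mitosis, −0.19 to 0.13 for D-type cyclins, −0.53 to −0.11 for cyclin L, CLK and SR genes, −0.036 to 0.30 for glycolysis, 0.54 to 0.95 for complement and −0.37 to 0.34 for imprinted genes. They ranged from −5.66 to −3.02 for leukocyte, −1.82 to −0.25 for erythroid, −1.99 to 2.49 for endothelial and 0.16 to 1.64 for muscle transcripts.

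Single genes far from the threshold turned sign when 1 library was left out, with ranges of −0.076 to 0.21 for Pdgfra, −0.83 to 4.35 for Pecam1, −0.67 to 0.37 for Alpl, −0.39 to 0.17 for Ibsp, −1.04 to 0.060 for Tnfrsf11b, −0.79 to 0.29 for Il12a, −0.27 to 0.038 for Csf1, −1.08 to 0.22 for Il11, −0.69 to 1.07 for Lif, −0.082 to 0.47 for Ccnd1 and −0.21 to 0.029 for Ccnd2. Total counts on genes were alike in all 6 libraries, but fewer genes had a count in +/1013 than in WT SSCs, and PCR copies were not told apart from molecules, so equal totals do not give equal precision for low genes.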

Other observations

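Neat1, the long noncoding RNA of nuclear paraspeckles, was named after its values were seen. It had 245, 453 and 323 CPM in WT and 38.4, 44.7 and 53.2 CPM in +/1013 SSCs, without overlap (log2 fold change −2.90, SE 0.40, adjusted p = 0.0541 by edgeR and Benjamini-Hochberg). Malat1, another nuclear RNA named after its values were seen, had 972, 964 and 752 CPM in WT and 180, 400 and 185 CPM in +/1013 SSCs (log2 fold change −1.81, adjusted p = 0.158 in the same test).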
